A study of Macaca mulatta with 12 samples.

Results

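Changes in liver RNA over an ethanol induction that all 6 animals of the study have in common were examined. The 6 biopsies taken at the end of the induction were set against the 6 taken before it. All 12 libraries of the series entered, matched into 6 pairs by the class and number in the sample titles. Of 23993 genes and 903 mature miRNAs in the count tables, 18373 genes and 427 miRNAs had enough counts to be tested. The animals were male rhesus macaques of about 4.6 years. All of them received ethanol at 0.5, then 1.0, then 1.5 g per kg per day, for 30 days at each dose (90 days in all). The 3 animals called light drinkers (LD) took 1.5 g per kg per day during 12 later months of free access, and the 3 called very heavy drinkers (VHD) took 4.0 g per kg per day. The 4 groups of 3 libraries were LD baseline, LD post-induction, VHD baseline and VHD post-induction. Both classes had the same induction, and the class names what an animal drank afterwards. No animal without ethanol over the same 90 days is among these libraries, so that effects of ethanol, of time and of a repeated biopsy cannot be told apart.

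Early response genes encode transcription factors such as FOS, JUNB, MYC and KLF6, which cells switch on within minutes to hours of a growth factor, a cytokine or an injury. Their mRNAs are short-lived, and proteins such as ZFP36 speed the decay of such mRNAs and so limit the response. In the liver they are known from regeneration and from the acute phase response, in which hepatocytes, driven by interleukins 1 and 6, secrete proteins such as C-reactive protein and hepcidin. The MYC protein in turn is known to drive genes of nucleolar ribosome assembly.

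Each library held 5970033 to 25060718 transcript counts and 127740 to 613359 miRNA counts. Hepatocyte markers were abundant in every library, with a summed level of 130636 to 264111 CPM (counts scaled to library size with TMM factors) over 16 genes. VHD baseline 3 and VHD post-induction 2 stood apart from the other 10 libraries on the second principal component of mRNA abundance, which held 20.6% of the variance. In these 2 libraries together 17 genes were at least 8-fold lower than in any other, 7 of them with snoRNA symbols. Both libraries of VHD animal 3 shared 18 genes that were at least 8-fold higher than in all other libraries, among them PRDM1 at 5609 and 2070 CPM against at most 5.48 CPM elsewhere, and the labels pair these 2 libraries. On the first component, which held 31.4% and goes partly with time, LD animal 1 and VHD animal 2 moved down between their biopsies (by 31.6 and 90.9) while the other 4 animals moved up (by 67.3 to 123).

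Genes moving alike in every animal were a small part of the transcriptome. Of the genes tested, 1177 (6.41%) moved alike in 6 of 6 animals, 687 (3.74%) of them lower after induction and 490 (2.67%) higher. With upper-quartile in place of TMM scaling, the split was 575 lower and 625 higher, so the balance of the 2 directions among all such genes depended on the scaling. Large changes were nearly all downward. A fall of at least 1 log2 unit (2-fold) in each of the 6 animals was met by 29 genes (0.158%), and a rise of that size in each animal by 1 gene (0.00544%), SNORA78. The 6 post-induction libraries were all below the 6 baseline libraries for 156 genes (0.849%) and all above them for 26 genes (0.142%).

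**Figure D1:**
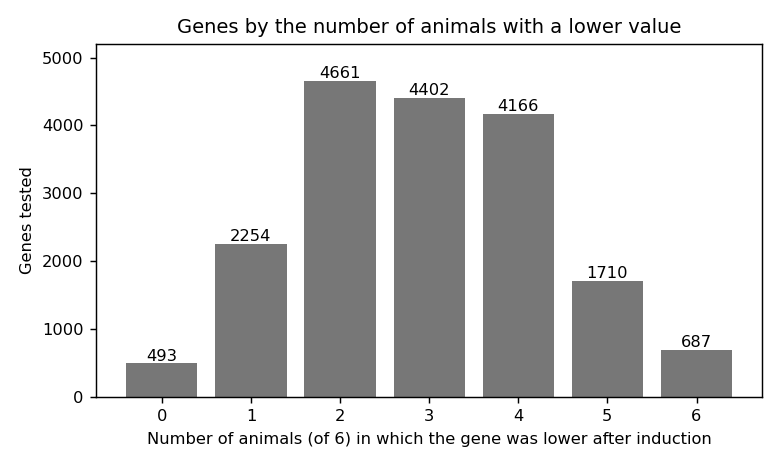
Number of the 18373 genes tested (y axis) by the number of animals, of 6, in which the gene was lower post-induction than at baseline (x axis). Most genes sit in the middle, 687 were lower in 6 of 6 animals and 493 were lower in none, 3 of which had a tied pair.

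With the responses of both classes averaged and edgeR's quasi-likelihood test, 49 genes (0.267%) passed at an adjusted p under 0.05, of which 46 fell (0.25%) and 3 rose (0.0163%). This fit took the 12 libraries as 4 groups and did not use the pairing by animal. The same test with a term for the animal called 4 genes (0.0218%). Among the 49 were 39 genes with a symbol. The median fall of the 46 was 1.84 on the log2 scale (range 0.997 to 4.91), beside a median change of 0.07 over all genes. At an unadjusted p under 0.05 were 1454 genes (7.91%), 764 lower and 690 higher. Of the 49, 48 moved alike in 6 of 6 animals, and the libraries of the 2 times did not overlap for 44. The median change over the 46 fallen genes was below 0 in each animal, at -1.29, -1.74 and -2.21 in LD animals 1, 2 and 3, and at -2.04, -1.64 and -1.50 in VHD animals 1, 2 and 3. LD animal 1 and VHD animal 2 moved against the others on the first component. In them, 32 and 38 of the 46 genes were lower by at least 1 log2 unit. The 49 genes were chosen by a fit to these same libraries. Their agreement between animals follows in part from that choice and is no separate test.

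The fallen genes had a median average abundance of 4.75 log2 CPM, against 2.42 over all genes tested, and 23 of the 46 spanned under 10000 bases in the genome, against 34.1% of all genes tested. Neither difference was tested. In bulk tissue, fewer cells of a type and less RNA per cell cannot be told apart.

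**Figure D2:**
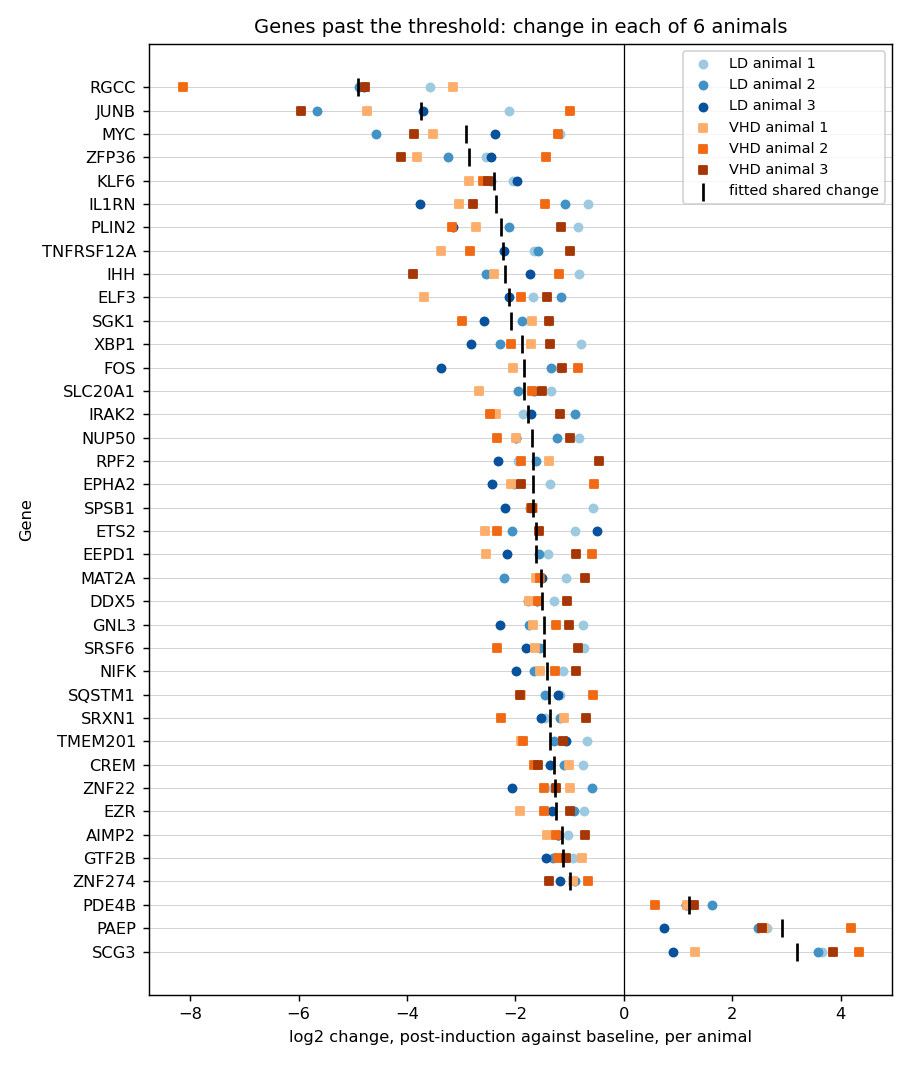
Change in log2 CPM between post-induction and baseline (x axis) for 38 of the 39 genes with a symbol past the threshold (y axis), with 1 point for each animal and a black bar for the fitted shared change. The 35 plotted genes that fell lie left of 0 in 6 of 6 animals and the 3 that rose lie right of it, with RGCC of VHD animal 2 at -8.14 as the lowest point.

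The fall with the lowest p was that of KLF6, a zinc finger transcription factor induced early after liver injury (ENSMMUG00000010696, chromosome 9 of Mmul_8.0.1, 3679835 to 3688584, minus strand). KLF6 stood at 136 to 249 CPM at baseline (median 170) and at 27.3 to 63.4 CPM post-induction (median 31.1). Every post-induction library was below every baseline library, and the 6 animals fell by between 1.97 and 2.87 log2 units. The fitted change was -2.40 ± 0.27 (SE; adjusted p = 0.0117), and the gene also passed with a term for the animal (adjusted p = 0.0177).

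JUNB, an AP-1 protein of the JUN family, went from 16.6 to 80.3 CPM (median 53.7) to 0.776 to 8.27 CPM (median 3.57). The groups did not overlap, but VHD animal 2, with the lowest baseline and the highest post-induction level, changed by only -0.996, against -5.95 in VHD animal 3. MYC, which drives growth and ribosome genes, went from 21.7 to 123 CPM (median 67.7) to 4.29 to 14.8 CPM (median 8.60), again with no overlap. FOS, the partner of JUN proteins in AP-1, went from 15.4 to 92.2 CPM (median 25.7) to 8.14 to 10.7 CPM (median 9.48). Its wide baseline range rested on LD baseline 3, as the next highest baseline value was 34.0 CPM in VHD baseline 1. Fitted changes were -3.75 ± 0.61 for JUNB (adjusted p = 0.0268), -2.91 ± 0.44 for MYC (0.0246) and -1.84 ± 0.34 for FOS (0.0423), while the animal term gave adjusted p-values of 0.111, 0.106 and 0.143. ETS2, a further transcription factor of this kind that lies outside the naming rule and was picked after its values were seen, fell by 1.63 log2 units, with overlapping groups (adjusted p = 0.0423, 0.0989 with the animal term and 0.101 without the 2 libraries that stood apart).

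The family did not move as 1 block. Of 10 tested AP-1 subunits, 2 fell (JUNB and FOS, and 1 without the 2 libraries that stood apart), beside 0.25% of all genes. In 6 of 6 animals 4 subunits were lower, beside 3.74% of all genes, and none was higher. The list's median was -0.91. FOSL2 stood at 13.5 to 37.5 CPM before and 5.66 to 12.6 CPM after without passing (-1.33, adjusted p = 0.134), and ATF3, a stress-induced member, had a change of at least -1.17 in each animal (-1.77, adjusted p = 0.215). FOSB (-0.12) and FOSL1 (0.76) were lower in 3 and 1 of 6 animals. Of 14 other early transcription factors, 2 fell (KLF6 and MYC; 1 without the 2 libraries) and 8 were lower at an unadjusted p under 0.05, where 4.16% of all genes were (median -0.64). NR4A2, an orphan nuclear receptor, was lower in 6 of 6 animals (-1.24, adjusted p = 0.179), whereas its relatives NR4A1 (-0.04) and NR4A3 (0.62) were lower in 2 and 1. KLF4 had a change of 0.20 and KLF2 of -0.28. JUN, EGR1 and IER2 matched no identifier and were not analysed here.

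**Figure D3:**
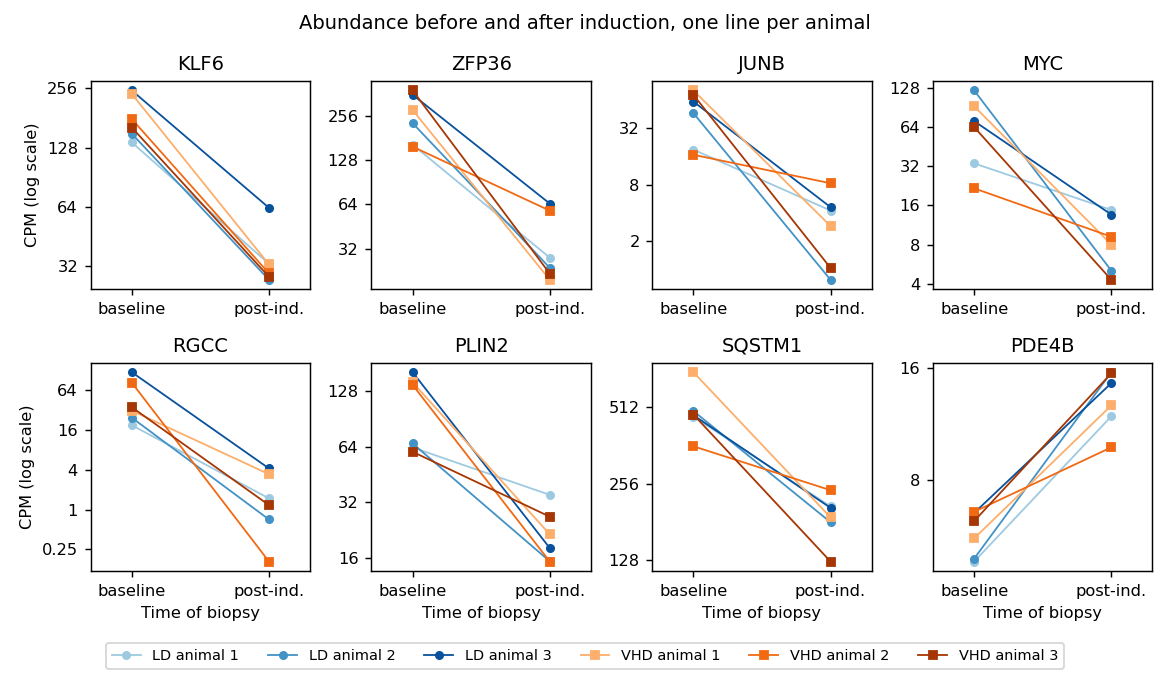
Abundance in CPM on a log2-scaled axis (y axis, a separate range for each gene) at baseline and post-induction (x axis), with 1 line for each of 6 animals. KLF6 drops by a like amount in all 6, JUNB drops least in VHD animal 2, MYC drops least in LD animal 1 and VHD animal 2, and PDE4B rises from at most 6.59 to at least 9.80 CPM.

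On the list of feedback inhibitors of early signals, ZFP36 and RGCC fell. ZFP36, which binds AU-rich elements and speeds the decay of cytokine mRNAs, went from 158 to 379 CPM (median 254) to 19.7 to 64.9 CPM (median 25.8). RGCC, a cell cycle regulator that responds to complement, went from 19.0 to 121 CPM (median 33.6) to 0.164 to 4.22 CPM (median 1.33). Neither gene had overlapping groups, and RGCC showed the largest fitted fall of all 18373 genes (-4.91 ± 0.73, 30.1-fold, adjusted p = 0.0246, 0.0637 with a term for the animal). ZFP36 changed by -2.86 ± 0.40 (adjusted p = 0.0246, 0.0637 with that term). Of the 23 tested members of the list these were the 2 that fell (0.25% of all genes did), also without the 2 libraries. The list, RGCC included, was chosen with earlier results of these data known, so this count is no separate test. In 6 of 6 animals 6 members were lower (3.74% of all genes were) and 1 was higher (2.67%). The list's median was -0.46. GADD45B, induced by stress and TGF-beta, stood at 55.7 to 292 CPM before (median 173) and 10.7 to 55.9 CPM after (median 25.9) and did not pass (-2.50, adjusted p = 0.065). SPSB1, an adaptor of a ubiquitin ligase that belongs to no list, fell from 40.3 to 131 CPM to 18.4 to 28.4 CPM (-1.68 ± 0.28, adjusted p = 0.0268, 0.0893 with the animal term).

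In interleukin 1 signalling, IL1RN and IRAK2 fell. IL1RN encodes the secreted antagonist of the interleukin 1 receptor and went from 14.0 to 80.0 CPM (median 28.4) to 4.83 to 11.8 CPM (median 6.58). IRAK2, a kinase below that receptor, went from 17.2 to 38.6 CPM (median 26.6) to 5.52 to 13.0 CPM (median 6.98). Both had separate groups, and the changes were -2.37 ± 0.43 for IL1RN (adjusted p = 0.0403, 0.143 with the animal term) and -1.77 ± 0.26 for IRAK2 (adjusted p = 0.0246, 0.0892 with it). IL1RN had no call without the 2 libraries. Of 26 tested genes of interleukin 1 and NF-kappaB signalling these 2 fell (0.25% of all genes did). In 6 of 6 animals 5 were lower (3.74% of all genes were). The list's median was -0.26. RELB, an NF-kappaB subunit, was lower in 6 of 6 and did not pass (-1.46, adjusted p = 0.108).

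Among 22 tested acute phase proteins, IL1RN was the 1 member past the threshold, but 12 members were lower in 6 of 6 animals (3.74% of all genes were) and none was higher in 6 of 6 (median -0.57). HAMP, the iron hormone hepcidin, stood at 1509 to 4377 CPM at baseline (median 2553) and at 252 to 1187 CPM post-induction (median 660). Its groups were separate, and each animal changed by at least -1.05, yet the gene did not pass (-2.02 ± 0.40, adjusted p = 0.065, 0.09 with the animal term). CRP, C-reactive protein, stood at 40.9 to 271 CPM before (median 162) and 16.7 to 48.4 CPM after (median 33.4; -2.27, adjusted p = 0.0919). The lipopolysaccharide binding protein LBP (-1.67), the protease inhibitor SERPINA3 (-1.19) and the 3 fibrinogen chains FGA (-0.64), FGB (-0.61) and FGG (-0.57) were lower in 6 of 6 animals without passing. SERPINA1 (-0.29), C3 (-0.15) and ITIH4 (-0.01), also abundant secreted liver proteins, were lower in 4 of 6.

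Falls also included receptors and ligands of injury and repair. TNFRSF12A, the receptor of the cytokine TWEAK on liver cells, went from 4.89 to 19.8 CPM (median 7.93) to 1.04 to 2.76 CPM (median 2.00). EPHA2, a receptor tyrosine kinase for ephrins, went from 18.2 to 29.1 CPM (median 24.7) to 4.60 to 14.8 CPM (median 6.61). Neither overlapped, with changes of -2.24 ± 0.36 (adjusted p = 0.0268, 0.0961 with the animal term) and -1.68 ± 0.26 (0.0246 and 0.0961). Of 22 tested members of the list 3 fell (0.25% of all genes did), TNFRSF12A and EPHA2 among them, and 2 without the 2 libraries. In 6 of 6 animals 7 were lower (3.74% of all genes were). The list's median was -0.36.

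IHH, the hedgehog ligand, stood at 15.9 to 64.8 CPM at baseline (median 38.8) and at 4.15 to 20.5 CPM post-induction (median 8.32), with overlapping groups and a fall in each animal (-2.19 ± 0.37, adjusted p = 0.0268, 0.106 with the animal term). No other of the 12 tested hedgehog genes passed, and the median of that list was 0.33. IHH had no call without the 2 libraries. ELF3, an epithelial transcription factor placed here among cholangiocyte markers, fell from 5.88 to 19.3 CPM to 1.38 to 3.04 CPM (-2.11 ± 0.35, adjusted p = 0.0268, 0.0989 with the animal term). No other of the 11 tested cholangiocyte markers passed, their median was 0.13, and EPCAM was higher in 6 of 6 animals (0.53, adjusted p = 0.774).

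Single genes of stress and metabolic pathways fell while most of their pathway did not. XBP1, the transcription factor of the unfolded protein response, went from 111 to 386 CPM (median 237) to 43.1 to 97.7 CPM (median 54.6), with no overlap (-1.87 ± 0.33, adjusted p = 0.0357, 0.0947 with the animal term). The other 19 tested genes of that response did not pass, the list's median was -0.03, and PDIA6, a chaperone of the endoplasmic reticulum, was higher in 6 of 6 animals (0.31, adjusted p = 0.818). XBP1 had no call without the 2 libraries. SGK1, a kinase induced by glucocorticoids, went from 30.5 to 123 CPM (median 62.1) to 10.8 to 21.4 CPM (median 16.9; -2.08 ± 0.33, adjusted p = 0.0268, 0.0801 with the animal term), while the 13 tested genes of the glucocorticoid response had a median of -0.06.

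PLIN2, the coat protein of lipid droplets, fell from 60.0 to 162 CPM (median 102) to 15.2 to 35.0 CPM (median 19.7; -2.26 ± 0.35, adjusted p = 0.0246, 0.0989 with the animal term). The other 25 tested genes of lipid droplets and PPAR alpha targets did not pass (median 0.10). Among them PPARGC1A, a coactivator of mitochondrial and fasting genes, was lower in 6 of 6 animals (-1.41, adjusted p = 0.0887), as was the hormone FGF21, at 0.934 to 10.9 CPM before and 0.371 to 1.66 CPM after (-2.27, adjusted p = 0.125). SLC20A1, a phosphate transporter in none of the lists, fell from 10.6 to 22.4 CPM to 3.04 to 6.04 CPM (-1.84 ± 0.25, adjusted p = 0.0246, 0.073 with the animal term).

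SQSTM1, the autophagy receptor p62, went from 360 to 704 CPM (median 478) to 127 to 242 CPM (median 198; -1.37 ± 0.24, adjusted p = 0.0357). SRXN1, which repairs oxidized peroxiredoxins, went from 39.7 to 76.3 CPM (median 58.5) to 13.7 to 27.7 CPM (median 23.9; -1.37 ± 0.23, adjusted p = 0.0268). Both had separate groups, and each had an adjusted p of 0.106 with the animal term. Both are known targets of NFE2L2 (NRF2), whose own mRNA stood at 152 to 260 CPM before and 80.3 to 124 CPM after and did not pass (-1.03, adjusted p = 0.0887). TXNRD1 (-1.29, adjusted p = 0.101) and GCLC (-1.02, adjusted p = 0.14), further enzymes of this defence, had separate groups too. Of the 21 tested genes of the oxidative stress response 1 fell and 5 were lower in 6 of 6 animals (median -0.18). Of the 19 of autophagy 1 fell and 4 were lower in 6 of 6 (median -0.30). Over all genes tested 0.25% fell and 3.74% were lower in 6 of 6.

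MAT2A, an enzyme that makes the methyl donor S-adenosylmethionine, fell from 62.7 to 231 CPM (median 139) to 37.8 to 55.9 CPM (median 52.1; -1.53 ± 0.28, adjusted p = 0.0397, 0.0989 with the animal term). It was the 1 call among 18 tested genes of methionine and glutathione metabolism (median -0.09). CREM, a factor that responds to cyclic AMP, fell from 72.0 to 165 CPM to 28.8 to 63.9 CPM (-1.28 ± 0.24, adjusted p = 0.0491, 0.0989 with the animal term) and had no call without the 2 libraries. Of the 23 tested genes of cyclic AMP signalling it was the 1 that fell and PDE4B the 1 that rose.

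Lists of ribosome assembly and of RNA processing were fixed with earlier results known and were not tested as sets. Of 36 tested genes of nucleolar ribosome biogenesis, 34 had a fitted change below 0, 23 were lower at an unadjusted p under 0.05 (4.16% of all genes were) and none was higher. In 6 of 6 animals 15 were lower (3.74% of all genes), and 2 fell past the threshold (0.25% of all genes), also without the 2 libraries. The list's median was -0.78 (-0.91 without the 2 libraries), and its median was below 0 in each animal. NIFK, which binds the proliferation antigen Ki-67, went from 18.5 to 34.7 CPM (median 26.3) to 8.34 to 12.8 CPM (median 8.74). GNL3, the GTP-binding protein nucleostemin, went from 40.6 to 96.8 CPM (median 65.4) to 19.8 to 30.8 CPM (median 20.5). Both had separate groups, with changes of -1.42 ± 0.21 (adjusted p = 0.0246, 0.0893 with the animal term) and -1.48 ± 0.24 (0.0268 and 0.0989). NOLC1 had separate groups as well (-1.04, adjusted p = 0.101), while FBL (-0.22), NPM1 (-0.46) and RRP12 (-0.01), core nucleolar proteins, were lower in 4 of 6 animals. RPF2, an assembly factor of the large ribosomal subunit outside the list, fell from 2.96 to 8.86 CPM to 1.44 to 2.78 CPM (-1.68 ± 0.29, adjusted p = 0.0336, 0.0989 with the animal term).

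Of 31 tested RNA helicases and splicing factors 2 fell (0.25% of all genes did), also without the 2 libraries, and 11 were lower in 6 of 6 animals (3.74% of all genes were). The median was -0.28, and in single animals it ran from -0.57 in LD animal 2 to -0.03 in LD animal 1. DDX5, an abundant RNA helicase, went from 291 to 412 CPM (median 368) to 105 to 151 CPM (median 122), and each animal changed by at least -1.04. SRSF6, a splicing factor rich in serine and arginine, went from 31.1 to 61.0 CPM (median 46.5) to 9.75 to 24.5 CPM (median 16.5). Neither overlapped (-1.51 ± 0.21, adjusted p = 0.0246, 0.0801 with the animal term, and -1.47 ± 0.26, 0.0336 and 0.105). Its relative SRSF7 had separate groups without passing (-1.61, adjusted p = 0.0687). NUP50, a protein of the nuclear pore, fell from 7.74 to 23.6 CPM to 3.72 to 6.31 CPM (-1.69 ± 0.31, adjusted p = 0.0423, 0.0989 with the animal term). The remaining fallen genes with a symbol, outside the naming rule, were EEPD1, TMEM201, ZNF22, EZR, AIMP2, GTF2B and ZNF274, with falls from 0.997 to 1.62 log2 units.

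**Figure D4:**
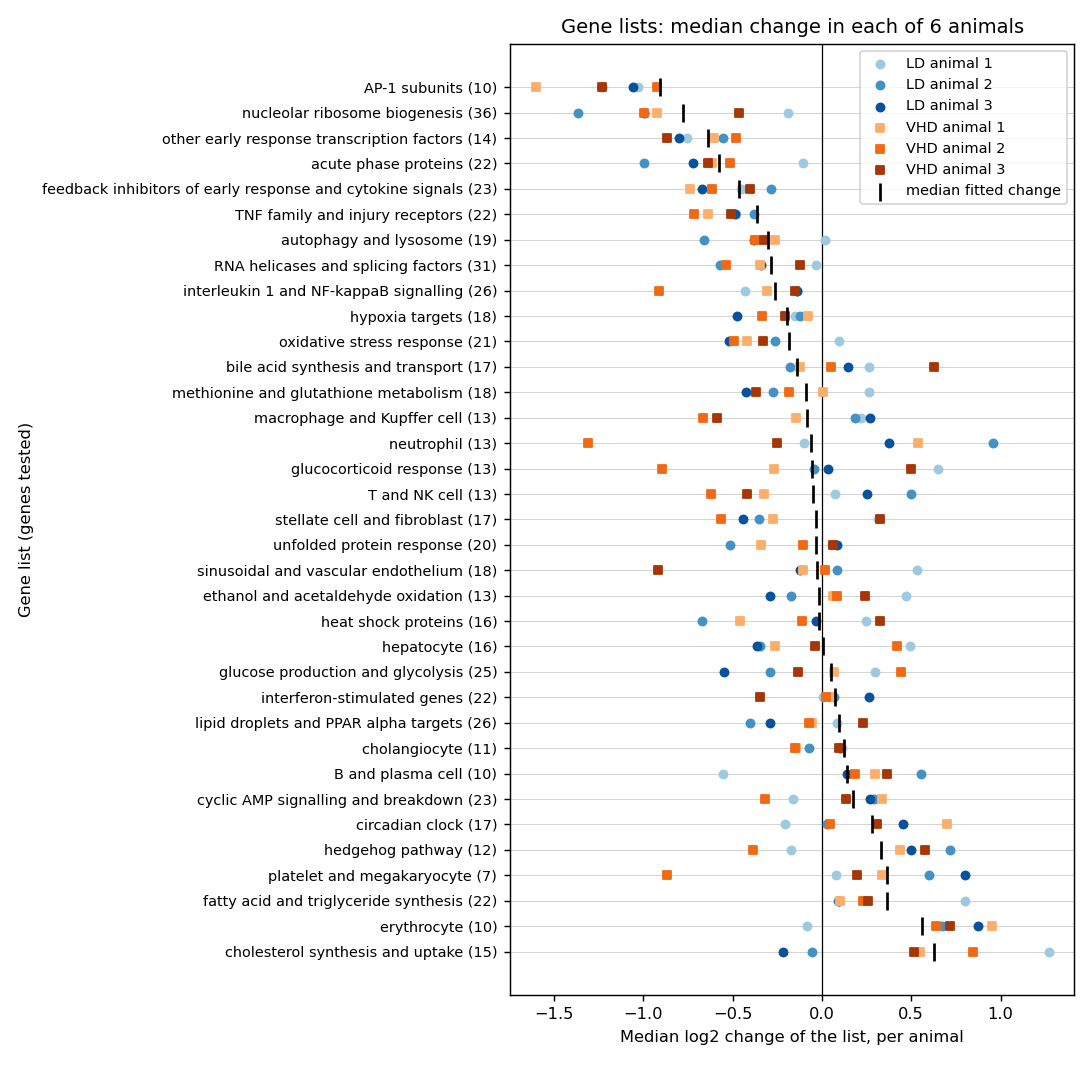
Median log2 change of 35 of the 36 gene lists (y axis, number of genes tested in brackets) in each animal (x axis), with a black bar for the median of the fitted changes. AP-1 subunits, other early transcription factors, nucleolar ribosome biogenesis and acute phase proteins lie left of 0 in all 6 animals, while most metabolic and cell type lists lie on both sides.

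The 3 genes that rose were PDE4B, SCG3 and PAEP, and the last 2 had baseline levels under 3 CPM. PDE4B, an enzyme that degrades cyclic AMP (chromosome 1, 65774718 to 66141524, plus strand), went from 4.84 to 6.59 CPM (median 5.91) to 9.80 to 15.6 CPM (median 13.6), with no overlap. SCG3, a secretogranin of secretory granules, went from 0.185 to 1.86 CPM to 2.40 to 14.7 CPM, and PAEP, the lipocalin glycodelin, from 0.862 to 2.96 CPM to 1.53 to 54.8 CPM with overlapping groups. The fitted changes were 1.20 ± 0.21 for PDE4B (adjusted p = 0.0363, 0.113 with the animal term), 3.19 ± 0.55 for SCG3 (0.0336 and 0.106) and 2.92 ± 0.48 for PAEP (0.0268 and 0.073). None of the 3 had a call without the 2 libraries, where 32 genes fell and 0 rose (edgeR, with 1885 genes at an unadjusted p under 0.05). MAPK8IP1, a scaffold of JNK signalling (1.57, adjusted p = 0.114), and PHLDB1 (1.83, adjusted p = 0.117) were the next genes by p that were higher in 6 of 6 animals.

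Lipid synthesis lists had medians above 0 in the fit and no call. Of 22 tested genes of fatty acid and triglyceride synthesis 5 were higher at an unadjusted p under 0.05, where 3.76% of all genes were. In 6 of 6 animals 3 were higher (2.67% of all genes were), and the list's median was 0.37. That median was above 0 in each animal, at 0.80, 0.09 and 0.10 in LD animals 1, 2 and 3 and 0.10, 0.23 and 0.26 in VHD animals 1, 2 and 3. The median over all genes in LD animal 2 was 0.08. ACACB, the mitochondrial acetyl-CoA carboxylase, stood at 9.86 to 19.7 CPM before and 20.6 to 46.4 CPM after, with no overlap (1.10, adjusted p = 0.133). FASN, fatty acid synthase, had a wide range at both times, 32.6 to 195 CPM and 61.4 to 541 CPM (1.29, adjusted p = 0.57). Of 15 tested genes of cholesterol synthesis and uptake 4 were higher at an unadjusted p under 0.05 and 2 in 6 of 6 animals (median 0.63), LSS, lanosterol synthase (1.12, adjusted p = 0.179), and NPC1L1, the cholesterol uptake transporter (0.63, adjusted p = 0.453). The median of the cholesterol list was 1.27 in LD animal 1 but -0.06 and -0.22 in LD animals 2 and 3, so the list did not move alike in all animals. SREBF1, the factor that drives fatty acid synthesis, had a change of -0.02. CRY2, a repressor of the circadian clock, had separate groups at 28.9 to 64.9 and 76.9 to 115 CPM (0.90, adjusted p = 0.176), while the 17 tested clock genes held 1 at an unadjusted p under 0.05 in each direction (CRY2 and ARNTL). The hour of each biopsy is not given in the sources used here, and its part in any of these results was not tested.

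Genes of ethanol oxidation did not pass. CYP2E1, the cytochrome that ethanol is known to stabilize, stood at 1228 to 3552 CPM before (median 2327) and 1489 to 2234 CPM after (median 1842; -0.42, adjusted p = 0.764). ADH4, a liver alcohol dehydrogenase, had a change of -0.03 (adjusted p = 0.993), whose sign differed between settings. The 13 tested genes of ethanol and acetaldehyde oxidation had a median of -0.01, and 0 were alike in 6 of 6 animals. CYP7A1, the first enzyme of bile acid synthesis, ranged from 2.15 to 48.4 CPM before and 1.20 to 42.7 CPM after (-0.78, adjusted p = 0.811).

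Of the 46 fallen genes, 10 identifiers could not be matched to a symbol. Among these 10 was ENSMMUG00000018025 on chromosome 6, at 84.6 to 459 CPM before and 5.28 to 35.2 CPM after. Its groups did not overlap (-3.79 ± 0.57, adjusted p = 0.0246, 0.0199 with the animal term). Of the 10, 2 lay in 1 stretch of chromosome 20 between MT4 and NUP93. That led to a look at the whole stretch after the values had been seen. The deposited table holds 11 identifiers there, none with a symbol. All 11 were tested and all 11 had a fitted change below 0 at an unadjusted p under 0.05, 10 were lower in 6 of 6 animals and 6 had separate groups, with a median of -2.88 (-3.56 without the 2 libraries, where 4 passed). The 2 that passed were ENSMMUG00000010378 (40777741 to 40787572, plus strand; -2.88 ± 0.51, adjusted p = 0.0364, 0.0596 with the animal term) and ENSMMUG00000010374 (40850033 to 40851241, plus strand; -3.11 ± 0.49, adjusted p = 0.0246, 0.025 with that term). In sum the 11 stood at 959 to 4320 CPM at baseline (median 1907) and at 51.3 to 941 CPM post-induction (median 425). The 2 times did not overlap in this sum, and the drop was largest in VHD animal 3 as a ratio and in LD animal 3 in CPM. They also make up 7 of the 29 genes that were lower by at least 1 log2 unit in each animal.

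The RefSeq annotation of another macaque assembly, T2T-MMU8v2.0, has 18 protein-coding genes between MT4 and NUP93, 8 of them with metallothionein (MT) symbols and 10 without a gene name. Metallothioneins are small proteins that bind zinc and copper and are known as acute phase and metal response genes of the liver. The files do not pair the 11 identifiers with names, so no single metallothionein is named here. If identifiers of the stretch are close copies, which was not examined, they may have shared reads in the authors' counting. The sum would then be firmer than any 1 of them. In this sum ENSMMUG00000038082 had the highest level, at a median of 1096 CPM before and 251 CPM after. It was lower in 6 of 6 animals, with overlapping groups, and did not pass (-2.06, adjusted p = 0.184).

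**Figure D5:**
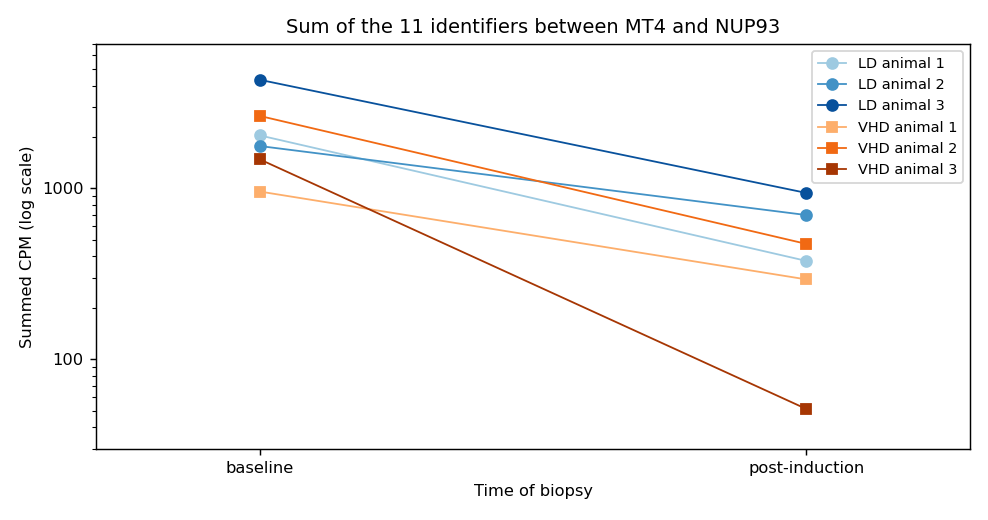
Sum of the CPM of the 11 identifiers between MT4 and NUP93 (y axis, log scale) at baseline and post-induction (x axis), with 1 line for each of 6 animals. All 6 lines fall, from at least 959 to at most 941 CPM, and VHD animal 3 ends lowest, at 51.3 CPM.

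Transcripts of the called genes mostly moved with their gene, to unequal degrees. Of 43 tested transcripts of the called genes that have more than 1, 42 had a fitted change in the direction of their gene, and the other was a transcript of RPF2 (ENSMMUT00000078963, 0.32). All 3 transcripts of MYC were lower (-5.51, -2.30 and -3.79). For PDE4B, transcript ENSMMUT00000010490 stood at 1.32 to 3.99 CPM before and 4.65 to 11.2 CPM after (2.09), whereas ENSMMUT00000078513 stood at 1.68 to 5.07 and 1.86 to 7.85 CPM (0.50). For SGK1, transcript ENSMMUT00000040036 went from a median of 57.2 to 10.5 CPM (-2.46) and ENSMMUT00000040035 from 5.30 to 4.91 CPM (-0.38). XBP1 likewise had its most abundant transcript, ENSMMUT00000010080, at 209 and 38.6 CPM (-2.12), and ENSMMUT00000010079 at 17.3 and 13.1 CPM (-0.50). With edgeR 0 of 27008 transcripts passed (lowest adjusted p = 0.0662, 1670 at an unadjusted p under 0.05), the values are estimates from short single reads, and the differences between transcripts were not tested.

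None of the following cell type lists held a call. Lists for macrophages and Kupffer cells (13 genes tested), T and NK cells (13), endothelium (18) and stellate cells (17) had medians from -0.08 to -0.03, and the hepatocyte list (16) had 0.01. Of the macrophage and Kupffer cell genes 10 were below 0 in the fit and 3 above, and of the T and NK cell genes 8 and 5. The macrophage sum had a median of 858 CPM at baseline and 655 CPM post-induction, and that of T and NK cells 46.2 and 81.0 CPM. The neutrophil list (13) had a median of -0.06, with 7 members below 0 and 6 above in the fit. Summed levels overlapped between the times, at 731 to 1359 and 516 to 883 CPM for macrophages, 26.5 to 244 and 38.6 to 337 CPM for T and NK cells, and 23.2 to 65.0 and 20.02 to 41.3 CPM for neutrophils. S100A8, a neutrophil and acute inflammation gene, was lower in 6 of 6 animals at low levels (1.38 to 15.9 and 0.821 to 2.07 CPM, -1.97, adjusted p = 0.0693), while ELANE, neutrophil elastase, was higher in 6 of 6 (1.10, adjusted p = 0.372). The 10 tested erythrocyte markers were all above 0 in the fit, with a median of 0.56 and none past the threshold. In 6 of 6 animals 2 were higher (2.67% of all genes were). The sum of the erythrocyte markers went from 28.4 to 65.4 CPM to 30.7 to 93.1 CPM. The part of blood or of other cells in the shared response was not tested.

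The 2 classes of later drinkers did not differ detectably in this response. Of the 49 genes, none had an unadjusted p under 0.05 for the difference between the VHD and LD responses. Over all genes, edgeR called 0 for that difference (239 at an unadjusted p under 0.05, 1.3%) and DESeq2 called 1 (0.00546%). For KLF6 the VHD change minus the LD change was -0.56 log2 units, and for JUNB -0.06. With 3 animals in a class these tests do not show that the classes respond alike.

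No mature miRNA passed. With edgeR 0 of 427 were called (11 at an unadjusted p under 0.05, 2.58%, of which 9 were lower, 2.11%, and 2 higher, 0.468%) and with DESeq2 0. Alike in 6 of 6 animals were 9 miRNAs (2.11%), 5 lower (1.17%) and 4 higher (0.937%). The lowest p among those belonged to miR-143-5p, a passenger strand from a smooth muscle and stromal miRNA, at 34.8 to 79.4 CPM of miRNA counts before and 0 to 30.3 CPM after (-1.69, adjusted p = 0.492). It was the 1 miRNA with separate groups (0.234%). The others named by p were miR-519c (-1.64), miR-129-5p (1.70), miR-4766-5p (-1.05) and miR-30c-2-3p (1.38), each with an adjusted p of 0.98.

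miR-122a-5p, the dominant hepatocyte miRNA, took 18.7 to 72.4% of the miRNA counts of a library and had a change of -0.06. The lowest shares were those of the 2 libraries that stood apart, VHD post-induction 2 (18.7%) and VHD baseline 3 (34.9%). The next lowest was 56.2% in VHD baseline 2. miR-21-5p, a miRNA linked to injury and fibrosis, had a change of 0.09, and its passenger strand miR-21-3p was lower in 5 of 6 animals (36.8 to 166 before and 0 to 38.6 CPM after, -2.37, adjusted p = 0.492). miR-34a-5p, known from growth arrest, was at 0.82 and miR-223, of myeloid cells, at 0.12. All 8 miRNA lists held 0 calls, with medians from -0.26 to 0.32. As a measure of total miRNA, counts per 1000 transcript counts were 9.39 to 29.6 before (median 20.6) and 11.9 to 43.5 after (median 26.2). Higher in 4 of 6 animals, they differed by 0.405 ± 1.12 log2 units (SD, n = 6; two-sided exact sign-flip permutation test, p = 0.40625, smallest possible 0.03125).

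The count of 49 rested on most of the libraries. A term for the animal left 4 calls (0.0218%), all among the 49 (KLF6 and ENSMMUG00000010374 were 2 of them), and DESeq2 called 284 genes (2.25%; 207 lower, 1.64%, and 77 higher, 0.61%), with 47 of the 49 among them. Leaving out 1 library gave 0 calls without LD post-induction 2 or VHD post-induction 1 (1099 and 1497 at an unadjusted p under 0.05), 1 without LD baseline 3 or VHD baseline 1, 2 without VHD post-induction 3, 4 without LD post-induction 3, 12 without LD baseline 2 and 31 without VHD baseline 2. In each of these fits all 49 genes kept their direction. Without VHD baseline 3 and VHD post-induction 2 together, 21 of the 39 genes with a symbol passed and 18 did not, at adjusted p-values of 0.0575 to 0.135. Among those 18 were MYC (0.0621), FOS (0.123), ELF3 (0.0772), SGK1 (0.0843) and SPSB1 (0.0825), each with a fitted change within 0.1 log2 units of the one over all 12 libraries.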

How the data were processed

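Liver RNA (RIN above 8.5) went into NEXTFLEX Combo-Seq libraries, which hold mRNA and miRNA of 1 sample, with single reads of 76 bases from a NovaSeq, per the labels' protocols. The authors deposited expected counts per transcript and per mature miRNA. Partek, Bowtie, BWA and Mmul_8.0.1 appear in the submitters' processing notes, and for versions, roles, annotation release and strand setting the sources used here say nothing. The deposited normalized tables hold signal values (raw counts times a constant per library) and served 1 alternative.

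The 40611 transcripts were summed into 23993 gene identifiers and rounded. Symbols came from the reference gene table (15471 identifiers matched), and identifiers without one took 16.2 to 17.6% of a library's counts. Starts may differ by 1 base. In edgeR 4.0.16 (R 4.3.3), filterByExpr by group, TMM factors and a robust quasi-likelihood fit of 4 group means over 12 libraries gave the response averaged over both classes, with Benjamini-Hochberg adjustment and a threshold of 0.05. CPM values are scaled by TMM factors, and changes in single animals are differences of log2 CPM with a prior count of 2. The animals' numbers pair the libraries, as each animal gave both biopsies. Correlations of paired deviations ran from -0.35 to 0.41 (mRNA) and from -0.62 to 0.18 (miRNA), lowest in VHD animal 2 for both. Alternatives were DESeq2 1.42.0, limma-trend (limma 3.58.1) on log2 of normalized values plus 1 or 0.1, RLE and upper-quartile factors, filters (none, or 1 CPM in 3 libraries), an animal term, time only, transcripts, a term for the sign of component 1, and leaving libraries out.

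On simulated data for the mRNA response (17886 genes), 7.81% of 2-fold, 77.3% of 4-fold and 92.4% of 8-fold changes were recovered, with 2 false among 119 calls. For the miRNA response (399 miRNAs) it was 7.14, 58.3 and 92.3%. The simulated counts held no animal effects and no libraries that stand apart. The share of false calls in them therefore does not measure that in the real data.

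The members, the 36 gene and 8 miRNA lists (768 gene names, 624 found) and the tests were chosen with earlier results of these data known. Named genes are the 20 largest falls and up to 10 rises past the threshold with a symbol, an average log2 CPM of at least 1 and the same direction in 6 of 6 animals (rises filled to 5 by p), up to 3 members of each list, the 5 lowest p among miRNAs alike in 6 of 6, and a panel of 4 miRNAs (miR-223, miR-34a, miR-21, miR-122) and of CYP7A1, FGF21, ADH4 and CYP2E1. Some genes that the rule names, and 1 gene list, are not reported here. Other genes were picked after their values were seen, as list members or as marked. Of the called genes 11 overlap another identifier, among them JUNB (RTBDN), NIFK (TSN) and SQSTM1 (MRNIP) on opposite strands and GNL3, DDX5 and SRXN1 on the same strand, and reads of overlapping genes cannot be told apart here. Whether the 2 times were prepared or sequenced together is not stated, so batch and time cannot be told apart.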

Additional observations from a re-analysis of the deposited data

Results flagged for a closer look

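RGCC fell by 8.14 log2 units (-8.14) in VHD animal 2, against changes of -3.15 to -4.88 in the other 5 animals. Its level in VHD post-induction 2, a library that stood apart, was 0.164 CPM. So near 0, the size of the change depends on the prior count of 2. SPSB1 changed by only -0.56 in LD animal 1, against -1.67 to -2.20 in the others. miR-143-5p changed by -3.20 in VHD animal 1 and by -0.726 in the animal that changed least. In each case 1 animal lay far from the other 5, and among the 41 sets of 6 animals examined, chance alone gives about 1 in 20.

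Medians of the macrophage and Kupffer cell list were 0.22, 0.18 and 0.27 in LD animals and -0.15, -0.67 and -0.59 in VHD animals (fitted median over both classes -0.08). The T and NK cell list behaved in the same way, with 0.07, 0.50 and 0.25 in LD animals and -0.32, -0.62 and -0.42 in VHD animals (-0.05 over both). In both lists the 3 LD animals moved one way and the 3 VHD animals the other, and the difference was not tested.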

How the results depend on the processing

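All 49 called genes kept their direction in every gene-level alternative, but their number did not hold. It was 284 with DESeq2, 81 with time alone as the factor, 103 (73 lower, 30 higher; 37 of the 49 kept) with a term for the sign of component 1, 32 (27 of the 49 kept) without VHD baseline 3 and VHD post-induction 2, 0 on transcripts, and 0 to 71 with 1 library left out. With the animal as a replicate block 4 genes passed, and this pairing gave 0 miRNA calls, as without it. The cause of these shifts was not tested. The difference of responses gave 1 call with DESeq2. Genes alike in all animals numbered 3741 over 4 pairs and 1439 to 2730 with 1 pair left out, where fewer pairs must agree, and miRNAs 72 and 11 to 55. miRNAs alike in 6 of 6 numbered 17 with no filter and 15 with the CPM filter, where more were tested.

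Values near 0 changed sign without a call. ADH4 went to 0.038 with upper-quartile factors, 0.0074 with the animal term, 0.0073 with limma-trend (either pseudocount) and -0.23 to 0.17 with 1 library left out. miR-122a-5p went to 0.031 (upper-quartile), 0.066 (no filter), 0.069 (CPM filter), 0.054 (without the 2 libraries), 0.00355 or 0.00354 (limma-trend, the pseudocounts of 1 and 0.1) and -0.28 to 0.46 with 1 library left out, and miR-122a-3p to 0.11 without LD baseline 1. With the term for component 1, miR-21-5p was at -0.70, miR-34a-5p at -0.092 and miR-223 at -0.79, and with 1 library left out miR-21-5p ranged from -0.14 to 0.49 and miR-223 from -0.52 to 0.53. Of 61 named features that were not called, 25 passed in some alternative. The 44 list medians moved by less than the spread between animals. On simulated data 7.81% of 2-fold changes were recovered, so at this depth and number of animals most shared changes of that size or smaller would be missed.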

Other observations

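Several gene groups that respond to other stresses held no call. Among 16 tested heat shock proteins 1 was lower at an unadjusted p under 0.05 and 0 were alike in 6 of 6 animals (median -0.01). Interferon-stimulated genes (22 tested) had a median of 0.07, with IRF9, a subunit of the interferon-activated factor ISGF3, lower in 6 of 6 animals (-0.59, adjusted p = 0.458) and OAS2, an antiviral enzyme, higher in 6 of 6 (0.60, adjusted p = 0.642). Of 18 tested hypoxia targets none was called, while 4 were lower at an unadjusted p under 0.05 (4.16% of all genes were) and 4 in 6 of 6 animals (3.74% of all genes; median -0.19). Their summed level did not overlap between the times, at 1321 to 1739 CPM before and 733 to 1156 CPM after. VEGFA, the endothelial growth factor, had separate groups at 67.1 to 91.5 CPM before and 33.6 to 62.5 CPM after (-0.75, adjusted p = 0.261).

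Transporters of bile acids included ABCB11, the export pump (0.80, adjusted p = 0.304), and ABCC3 (0.63, adjusted p = 0.417) higher in 6 of 6 animals, while the bile acid receptor NR1H4 was lower in 6 of 6 (-0.53, adjusted p = 0.721). ZBTB21 (-2.17, adjusted p = 0.0816), picked after its values were seen, was lower by at least 1 log2 unit in each animal without passing.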
